A study of Mus musculus with 2 samples.

Results

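The D-type cyclins Ccnd1, Ccnd2 and Ccnd3, the E-type cyclins Ccne1 and Ccne2 and their kinases Cdk2, Cdk4 and Cdk6 were followed through single cells of mouse bone marrow. These 8 genes were taken by symbol from the 31053 genes of the count tables, and all 8 had transcripts in both libraries. D-type cyclins bind Cdk4 or Cdk6, and the complexes phosphorylate the retinoblastoma protein in G1 phase, which frees E2F factors to switch on genes of DNA replication. E-type cyclins are themselves E2F targets, bind Cdk2 and act at the entry into S phase. In blood formation the D cyclins overlap in part: Ccnd3 is known for its role in the expansion of pre-B cells in mice, and Cdk6 for the exit of stem cells from quiescence.

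There were 2 libraries, 1 per group, of haematopoietic stem cells (HSCs) from bone marrow of wild-type C57BL/6J mice with a stated age of 6 to 8 weeks. The Listeria library came from mice challenged 6 weeks before sampling with Listeria monocytogenes, an intracellular bacterium, and the naive library from mice with no challenge. The names of the deposited files call the Listeria library a knockout, with no gene given, whereas its labels say wild type. The labels were followed, and if the file names were right, genotype and challenge could not be told apart in any ratio of the libraries. The number of mice per library is not given in the sources used here, nor whether the stated age was that at challenge or at sampling. Sequencing gave 43895966 UMIs (molecular tags, counted once per captured transcript) in the Listeria library and 64619150 in the naive library. Cells were barcodes with at least 2500 UMIs, at least 500 genes and at most 10% mitochondrial UMIs, which gave 4839 Listeria cells and 6375 naive cells with medians of 7239 and 6972 UMIs. Only 14 of the kept barcodes occurred in both libraries. With 1 library per group no difference between them has a replicate check and no p-value is given. Ranges in parentheses are 95% limits from counting error alone. Levels are given as CPM, the UMIs of a gene per 1000000 UMIs of the same cells. The assay counts 1 tag at the 3′ end of each transcript, so that a level needs no correction for length, but genes can differ in how well their ends are captured.

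The labels call both libraries HSCs, and the cells were checked for HSC markers. They were assigned to 12 classes by how many markers of a class had a UMI. At least 4 of 15 HSC markers (such as Procr, Mecom and Hlf), and at least as large a part of them as of the multipotent markers, were found in 896 of 4839 Listeria cells (18.5%) and 1047 of 6375 naive cells (16.4%), here called HSC-like. Multipotent progenitor-like cells made up 34.7% of Listeria and 28.3% of naive cells. B-lineage-like cells, with at least 6 of 10 markers such as Vpreb1, Igll1 and Cd79a, made up 8.02% of Listeria and 21.3% of naive cells. The other gates were megakaryocyte lineage-like (384 Listeria and 329 naive cells), early lymphoid-like (92 and 295), T and NK cell-like (108 and 212), dendritic and antigen-presenting cell-like (43 and 90), neutrophil-like (79 and 88), plasma cell-like (31 and 62), erythroid-like (37 and 27), myeloid progenitor-like (14 and 10) and basophil and mast cell-like (3 and 3). No gate took 1035 Listeria and 954 naive cells, and 50 and 99 cells with several lineage programmes were left out of the gates. HSC and multipotent cells form a continuum, so that these gates are ranges of marker number and not sharp types. Gate sizes also changed with the settings. With gates set on cells thinned at random to equal depth, 385 Listeria and 493 naive cells were HSC-like and 648 and 824 multipotent progenitor-like. Megakaryocyte lineage-like cells fell to 52 and 53, B-lineage-like cells changed less, to 318 and 1184, and neutrophil-like cells rose to 86 and 97. With 1 marker fewer per gate, 679 and 615 cells were megakaryocyte lineage-like and 844 and 953 HSC-like.

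The genes lie on 6 chromosomes of the GRCm38 (mm10) assembly in the GENCODE annotation. Ccnd1 is at chr7:144929931-144939925 and Ccne1 at chr7:38097984-38107534, both on the minus strand. Ccnd2 is at chr6:127125162-127152193 on the minus strand and Ccnd3 at chr17:47505051-47599691 on the plus strand. Ccne2 is at chr4:11191351-11204779 on the plus strand. Cdk2 is at chr10:128697939-128705031 on the minus strand, Cdk4 at chr10:127063534-127067920 on the plus strand and Cdk6 at chr5:3341485-3531008 on the plus strand. Each of the 8 genes except Ccne1 overlaps at least 1 gene on the opposite strand, such as Bysl for Ccnd3 and Tspan31 for Cdk4. How strand was used in the counting is not given in the sources used here, so reads from such partners cannot be set apart.

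Promoter windows from RefSeq (GRCm38.p6) were found for 5 of the 8 genes. They are shown for Cdk4 and Cdk6, the alternative partners of the D cyclins, because the balance between these kinases differed by cell type. Capitals mark the E-box CACGTG, the letters bound by Myc with Max, searched on both strands, where it reads the same. The Cdk4 stretch runs from 250 to 2 bases before the annotated start (chr10:127063285-127063533, plus strand). The Cdk6 stretch runs from 250 to 162 bases before its start (chr5:3343643-3343731, plus strand) and leaves out bases annotated as exon. RefSeq starts Cdk6 downstream of the GENCODE start, so that this window lies inside the GENCODE gene bounds given above.
Cdk4: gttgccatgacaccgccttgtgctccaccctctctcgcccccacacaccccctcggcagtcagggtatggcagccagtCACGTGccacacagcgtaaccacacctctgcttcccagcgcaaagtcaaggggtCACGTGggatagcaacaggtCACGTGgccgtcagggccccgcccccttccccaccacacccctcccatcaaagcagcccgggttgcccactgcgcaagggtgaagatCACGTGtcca
Cdk6: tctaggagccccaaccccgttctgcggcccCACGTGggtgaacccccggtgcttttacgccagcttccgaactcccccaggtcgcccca
The Cdk4 window held 4 E-boxes, which start 172, 118, 98 and 11 bases before the start, and the Cdk6 window 1. Of all 32851 RefSeq windows of this length, 6.02% held at least 1 E-box, and 7 windows (0.0213%) held 4 or more. The windows of Ccnd3, Ccne1 and Cdk2 held no E-box. The E-box was 1 of several words searched. Of 4 E2F words, the Cdk2 window held 1 and the other windows none, where 1.86% of all windows held any. The GC box GGGCGG, in 32.7% of all windows, was in each of these windows except that of Cdk6. These are letter matches and no measure of binding.

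The leading D cyclin was not the same in all cell types. In HSC-like cells Ccnd2 supplied 60.5% of D cyclin UMIs in the Listeria library (interval 58.7 to 62.4) and 53.6% in the naive library (51.6 to 55.5), ahead of Ccnd3 with 26.1% and 31.8% and of Ccnd1 with 13.3% and 14.6%. Multipotent progenitor-like cells had the same order, with Ccnd2 at 58.2% in Listeria and 50.3% in naive cells. In B-lineage-like cells Ccnd3 supplied 88.0% in Listeria (86.5 to 89.3) and 84.9% in naive cells (83.9 to 85.8), and Ccnd1 0.72% and 1.29%. Neutrophil-like cells were also led by Ccnd3, with 91.6% and 83.4%. Plasma cell-like cells, the antibody-secreting end of the B lineage, were instead led by Ccnd2, with 95.04% in Listeria and 88.1% in naive cells, and held Ccnd3 at 4.96% and 7.92%. The B-lineage-like and plasma cell-like intervals for Ccnd3 were thus far apart in both libraries.

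**Figure D1:**
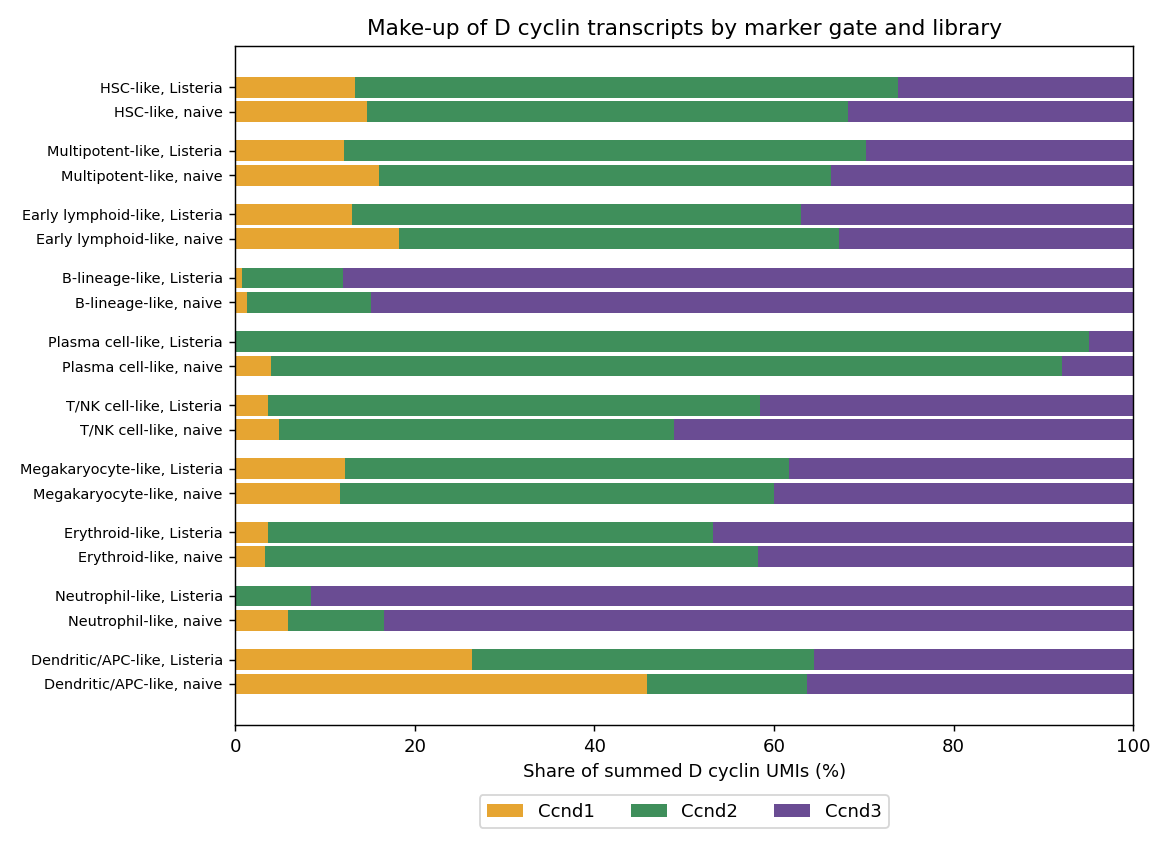
Share of each D cyclin in the summed D cyclin UMIs (x axis, %) of 10 marker gates, with the Listeria bar above the naive bar of each gate. Ccnd2 (green) leads in HSC-like cells at 60.5% and 53.6%, and Ccnd3 (purple) leads in B-lineage-like cells at 88.0% and 84.9%.

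The remaining gates were mixed. Megakaryocyte lineage-like cells held 12.3% Ccnd1, 49.4% Ccnd2 and 38.3% Ccnd3 in the Listeria library, against 11.7%, 48.4% and 40.0% in the naive library. In T and NK cell-like cells Ccnd2 had 54.8% in Listeria and 44.0% in naive cells, and Ccnd3 41.5% and 51.1%, so that the leading gene differed between the libraries, but with 1 marker fewer per gate Ccnd3 led in Listeria and with 1 more Ccnd2 led in naive cells. Dendritic and antigen-presenting cell-like cells were the gate richest in Ccnd1, with 26.4% in 43 Listeria cells (19.8 to 33.8) and 45.9% in 90 naive cells (40.3 to 51.5). In that gate the leading D cyclin of the Listeria cells changed with 5 of the processing settings, and 1 cell held 17.7% of its Ccnd2 UMIs. Early lymphoid-like cells, where Ccnd2 supplied 154 of 308 D cyclin UMIs in Listeria and 364 of 742 in naive cells, had Ccnd3 in the lead when gates were set on cells of equal depth.

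Ccnd1 was the rarest D cyclin in every gate of at least 20 cells except the naive dendritic and antigen-presenting cell-like cells. Its level was highest in dendritic and antigen-presenting cell-like cells, at 101 CPM (73.0 to 136) in Listeria and 186 CPM (157 to 219) in naive cells. Below them came HSC-like, early lymphoid-like, megakaryocyte lineage-like and multipotent progenitor-like cells, between 39.7 and 58.2 CPM in Listeria and between 42.8 and 66.0 CPM in naive cells, where the intervals of neighbours overlapped. B-lineage-like cells stood at 3.97 CPM (2.27 to 6.45) in Listeria and 5.78 CPM (4.57 to 7.21) in naive cells. No Ccnd1 UMI was found in 79 Listeria neutrophil-like cells, against 10 UMIs in 88 naive ones.

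Ccnd2 was highest in HSC-like cells of both libraries, at 264 CPM (252 to 277) in Listeria and 191 CPM (181 to 202) in naive cells. In Listeria cells the next gate, T and NK cell-like, overlapped at 224 CPM (190 to 263), and in naive cells early lymphoid-like did, at 178 CPM (160 to 197). B-lineage-like cells held 62.3 CPM in Listeria and 62.1 CPM in naive cells, and neutrophil-like cells 15.2 and 25.5 CPM. Relative to HSC-like cells of the same library, Ccnd2 was lower in B-lineage-like cells by a log2 difference of -2.09 (-2.28 to -1.89) in Listeria and -1.62 (-1.75 to -1.50) in naive cells.

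Ccnd3 stood highest in B-lineage-like cells, at 484 CPM (463 to 506) in Listeria and 380 CPM (370 to 391) in naive cells, and no other gate's interval reached these values. Its log2 difference from HSC-like cells was 2.08 (1.96 to 2.21) in Listeria and 1.74 (1.64 to 1.85) in naive cells. The other gates lay close together, between 97.9 and 170 CPM in Listeria and between 75.7 and 200 CPM in naive cells, except plasma cell-like cells at 11.3 and 10.1 CPM. Free RNA from broken cells, estimated at 0.784% of cell UMIs in the Listeria and 1.15% in the naive library, would add 0.948 and 1.78 CPM of Ccnd3 to every cell type. That estimate rests on neutrophil granule genes in HSC-like and B-lineage-like cells, chosen after haemoglobin genes had been tried. Haemoglobin genes gave 1.24% in the Listeria and 38.9% in the naive library, where 10 cells held 97.9% of the haemoglobin UMIs, and in HSC-like cells alone 1.61% and 1.42%. After each cell was thinned to 2500 UMIs, 59.8% of Listeria and 51.1% of naive B-lineage-like cells had a Ccnd3 UMI, against 23.9% and 26.0% of HSC-like cells and 0 of 31 and 3.23% of 62 plasma cell-like cells. The gates were thinned to the same depth because their median UMIs differed, at 9773.5 and 9237 in B-lineage-like, 6532 and 6509 in HSC-like and 16262 and 11825 in plasma cell-like cells.

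Most cells with a D cyclin UMI showed 1 D cyclin at this depth. Among the 564 Listeria HSC-like cells with any D cyclin UMI, 45.2% had Ccnd2 alone, 17.9% Ccnd3 alone, 8.69% Ccnd1 alone and 15.2% both Ccnd2 and Ccnd3. Of the 599 naive cells of that kind, 42.4% had Ccnd2 alone, 26.0% Ccnd3 alone, 8.18% Ccnd1 alone and 13.7% Ccnd2 with Ccnd3. All 3 D cyclins were detected in 13 of these Listeria cells and 11 of the naive ones. In B-lineage-like cells Ccnd3 alone accounted for 79.4% of 257 Listeria and 77.7% of 788 naive cells with a D cyclin UMI. A cell with 1 detected D cyclin may hold others that were not captured.

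The E cyclins were high in the B-lineage-like and erythroid-like gates and low elsewhere. Ccne1 reached 70.0 CPM (62.1 to 78.7) in Listeria and 57.9 CPM (53.9 to 62.1) in naive B-lineage-like cells, against 1.44 CPM (0.656 to 2.73) and 1.69 CPM (0.873 to 2.95) in HSC-like cells. Ccne2 reached 40.5 CPM in Listeria and 31.9 CPM in naive B-lineage-like cells, against 2.07 and 1.27 CPM in HSC-like cells. Erythroid-like cells also held both, with Ccne1 at 66.4 CPM (46.0 to 92.8) in 37 Listeria cells and 63.7 CPM (43.6 to 90.0) in 27 naive cells, and Ccne2 at 25.4 and 23.9 CPM. The intervals of the B-lineage-like and erythroid-like gates overlapped for both genes. A single cell held 35.3% of the Ccne1 UMIs of the Listeria erythroid-like gate and 21.9% of the naive one.

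In all other gates with at least 20 cells in each library both E cyclins were at or below 18.8 CPM. Megakaryocyte lineage-like cells stood above HSC-like cells for Ccne2 in both libraries, at 8.33 CPM (5.84 to 11.5) in Listeria and 8.62 CPM (5.86 to 12.2) in naive cells. The level that free RNA would add was 0.0905 CPM of Ccne1 in the Listeria and 0.168 CPM in the naive library by the granule gene estimate. The 9 Listeria and 12 naive Ccne1 UMIs of the HSC-like gate are too few to say which E cyclin leads there. Ccne1 outnumbered Ccne2 in B-lineage-like cells, with 63.4% of E cyclin UMIs in Listeria (58.7 to 67.9) and 64.5% in naive cells (61.7 to 67.2).

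After thinning, 18.6% of 388 Listeria and 17.1% of 1357 naive B-lineage-like cells had an E cyclin UMI, against 0.67% of Listeria and 0.955% of naive HSC-like cells. The B-lineage-like cells with an E cyclin UMI averaged 16.9 UMIs of 20 S phase genes in the Listeria library, and those without 11.0. In the naive library the averages were 14.2 with and 9.24 without. The G2 and M phase list differed less, at 14.3 with and 12.1 without in Listeria and 12.8 with and 10.7 without in naive cells.

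Cdk2, the partner of the E cyclins, was highest in B-lineage-like cells, at 88.6 CPM (79.7 to 98.3) in Listeria and 74.7 CPM (70.2 to 79.5) in naive cells. Megakaryocyte lineage-like (36.6 and 33.9 CPM) and multipotent progenitor-like cells (33.7 and 29.8 CPM) followed. Early lymphoid-like cells came next in Listeria, ahead of HSC-like cells, and after HSC-like cells in the naive library, at 32.5 and 22.97 CPM against 26.5 and 24.5 CPM in HSC-like cells. From megakaryocyte lineage-like cells down, the interval of each gate overlapped with that of the next. The interval of B-lineage-like cells lay above them. Erythroid-like cells, which had as much Ccne1 as B-lineage-like cells, held Cdk2 at 25.4 CPM (13.5 to 43.4) in Listeria and 21.9 CPM (10.9 to 39.2) in naive cells, close to HSC-like cells.

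**Figure D2:**
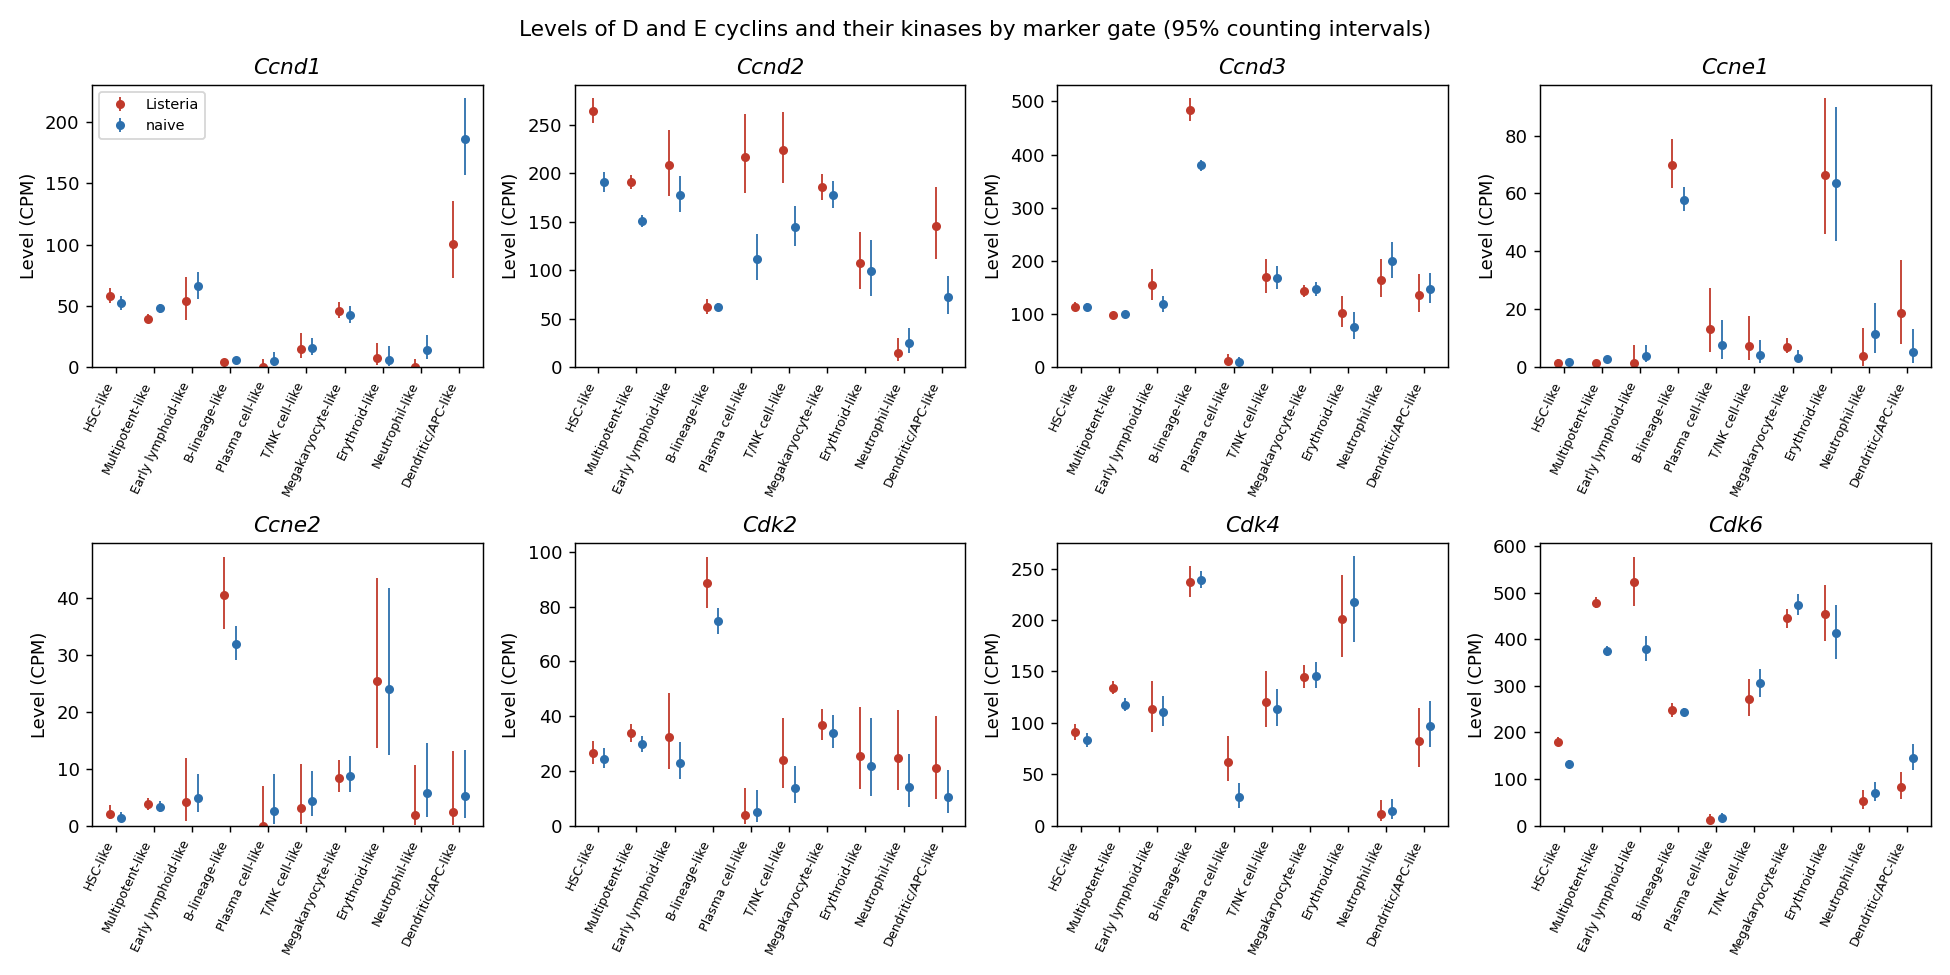
Level of each gene (y axis, CPM on a linear scale that differs by panel) in 10 marker gates, Listeria (red) left of naive (blue), with bars for 95% counting intervals. Ccnd3, Ccne1, Ccne2 and Cdk2 stand highest in B-lineage-like cells or beside them in erythroid-like cells, and Cdk6 is at 180 and 133 CPM in HSC-like cells but at 478 and 375 CPM in multipotent progenitor-like cells.

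Cdk6 separated the stem cell gate from the progenitor gates. HSC-like cells held 180 CPM (170 to 191) in Listeria and 133 CPM (124 to 141) in naive cells. Multipotent progenitor-like cells held 478 CPM (466 to 490) in Listeria and 375 CPM (365 to 386) in naive cells. That was 2.65-fold the level of HSC-like cells in Listeria and 2.82-fold in naive cells. The 4 highest gates were early lymphoid-like (523 and 380 CPM), multipotent progenitor-like, erythroid-like (453 and 412 CPM) and megakaryocyte lineage-like (445 and 474 CPM). Their order was not the same in both libraries, and within this set neighbours overlapped. Plasma cell-like cells were lowest, at 11.3 CPM in Listeria and 16.3 CPM in naive cells.

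Cdk4 ran otherwise. It was highest in B-lineage-like cells, at 237 CPM (222 to 253) in Listeria and 239 CPM (231 to 248) in naive cells. Erythroid-like cells overlapped with them at 201 CPM (164 to 244) and 217 CPM (178 to 262). HSC-like cells held 90.9 CPM (83.6 to 98.7) in Listeria and 83.2 CPM (76.6 to 90.2) in naive cells, and neutrophil-like cells 11.4 and 14.2 CPM.

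The share of Cdk6 in the UMIs of both D cyclin partners therefore differed by gate. It was 82.1% in Listeria and 77.4% in naive early lymphoid-like cells, 78.1% and 76.1% in multipotent progenitor-like cells, 75.4% and 76.5% in megakaryocyte lineage-like cells and 66.5% and 61.5% in HSC-like cells. B-lineage-like cells were near parity, at 51.1% (48.9 to 53.3) in Listeria and 50.4% (49.2 to 51.6) in naive cells, and which kinase led there changed with the processing. Plasma cell-like cells leaned to Cdk4, with Cdk6 at 15.4% (5.86 to 30.5) of 39 UMIs in Listeria and 37.1% (21.5 to 55.1) of 35 UMIs in naive cells, and 1 cell held 30.3% of the Listeria Cdk4 UMIs.

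HSC identity was then graded by the number of HSC markers left in cells thinned to 2500 UMIs, over the HSC-like, multipotent progenitor-like and ungated cells. In Listeria cells with 0, 1, 2, 3 and at least 4 markers Cdk6 stood at 463.5, 433, 372, 297 and 193 CPM. In naive cells it stood at 366.5, 332, 319, 223 and 145 CPM. Cdk6 was thus lower with each added marker in both libraries, and the intervals of the end groups were far apart. Ccnd2 was highest with at least 4 markers, at 163.5, 163, 192, 233 and 308 CPM in Listeria cells and at 153, 144, 165, 157 and 186 CPM in naive cells. The Ccnd2 gap between the libraries was within the counting intervals at 0 markers and widest at 4 or more, with 308 CPM (288 to 330) in Listeria and 186 CPM (173 to 201) in naive cells. Cdk4 was lower with at least 4 markers than with 0, at 92.4 and 119 CPM in Listeria and at 80.2 and 118 CPM in naive cells. Ccnd3 was higher with at least 4 markers, at 124 CPM against 94.1 CPM with 0 in Listeria and at 122.6 CPM against 92.3 CPM in naive cells.

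**Figure D3:**
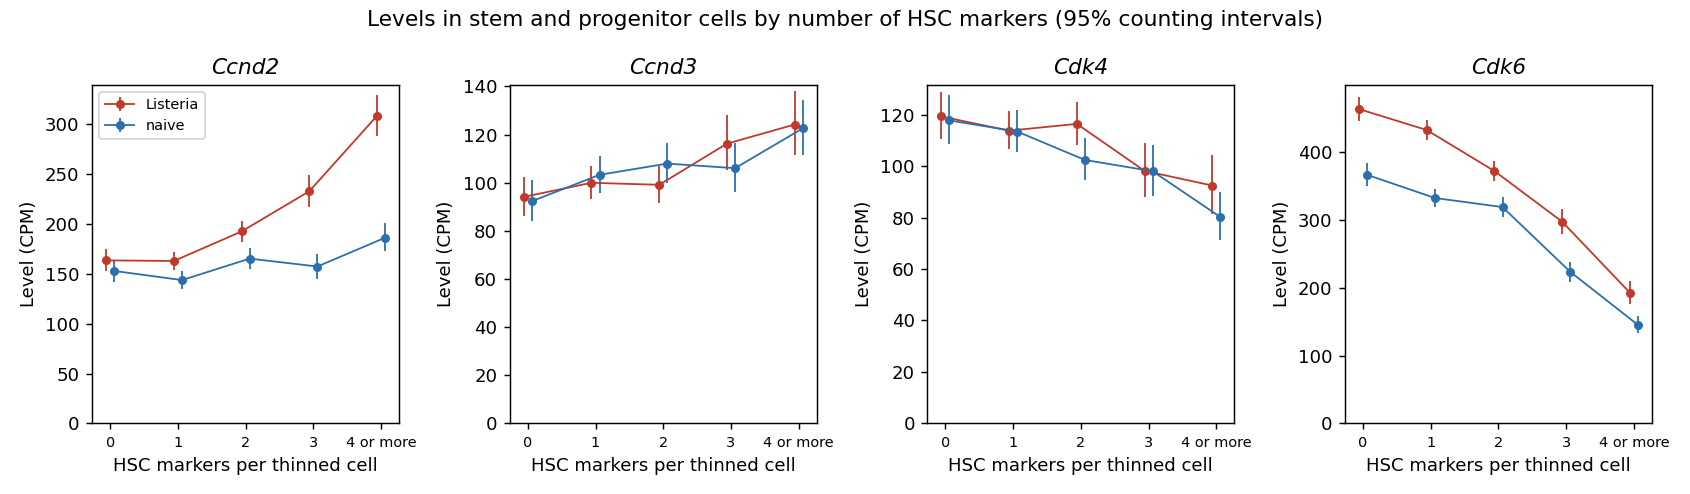
Levels (y axis, CPM) of Ccnd2, Ccnd3, Cdk4 and Cdk6 in stem and progenitor cells grouped by the number of HSC markers detected after thinning (x axis), Listeria (red) and naive (blue), with 95% counting intervals. Cdk6 is lowest, at 193 CPM in Listeria and 145 CPM in naive cells, with at least 4 markers, where Ccnd2 is at 308 and 186 CPM.

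The genes also differed in how their levels went with transcripts of S, G2 and M phase genes. Cells of each gate were divided by the UMIs of 40 S, G2 and M phase genes found after thinning. At least 3 such UMIs were found in 24.1% of Listeria and 20.5% of naive HSC-like cells, 31.6% and 28.9% of multipotent progenitor-like cells and 93.3% and 92.0% of B-lineage-like cells. Member levels were taken from all UMIs of these cells. Such UMIs were few in the stem cell gate. HSC-like cells without an E cyclin UMI averaged 1.46 S phase and 0.496 G2 and M phase UMIs in Listeria and 1.29 and 0.538 in the naive library. The groups of that gate therefore need not part resting from dividing cells.

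Cdk6 followed these transcripts in the stem cell gate. In HSC-like cells with at least 3 such UMIs it stood at 221 CPM, against 130 CPM in those with none, in the Listeria library, a log2 difference of 0.76 (0.51 to 1.03). In the naive library it stood at 178 CPM with at least 3 and 120 CPM with none (0.57, 0.29 to 0.84). Ccnd2 did not: it was at 250 CPM with at least 3 and 256 CPM with none in Listeria HSC-like cells and at 202 and 192 CPM in naive ones, with intervals of the difference from -0.24 to 0.17 and from -0.16 to 0.31. Cdk4 was at 126 CPM with at least 3 and 75.0 CPM with none in Listeria HSC-like cells (0.75, 0.40 to 1.10), and at 84.8 and 86.0 CPM in naive ones (-0.02, -0.38 to 0.34). In multipotent progenitor-like cells Cdk4 was higher with at least 3 such UMIs in both libraries, at 181 CPM against 101 CPM with none in Listeria cells and at 149 CPM against 103 CPM in naive cells. Cdk6 differed less there, at 522 and 456 CPM in Listeria and 405 and 325 CPM in naive cells.

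**Figure D4:**
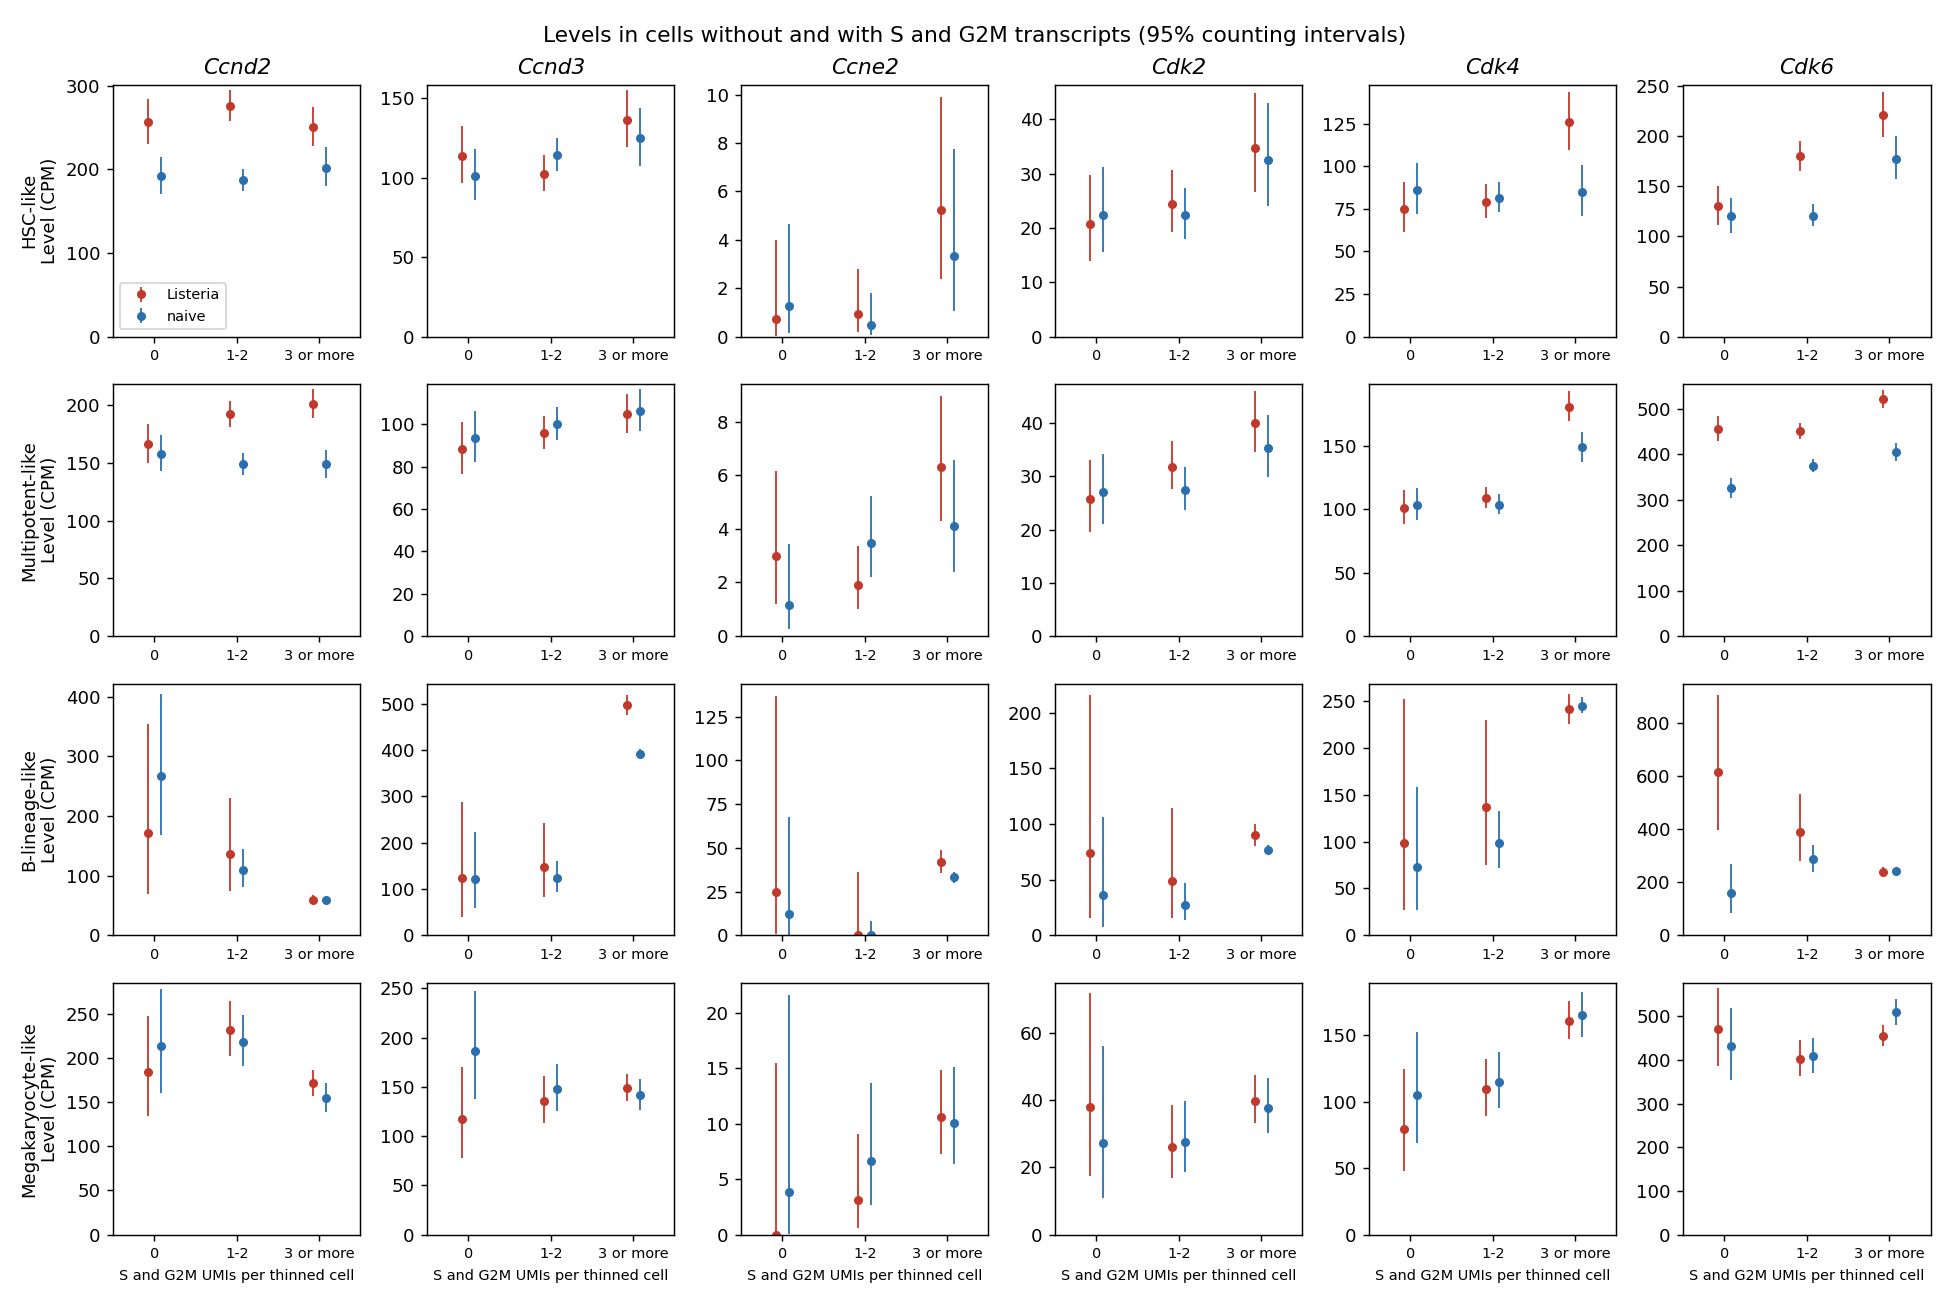
Levels (y axis, CPM) of the genes in cells with 0, 1 or 2 and at least 3 UMIs of 40 S, G2 and M phase genes after thinning (x axis), Listeria (red) and naive (blue), with 95% counting intervals. In HSC-like cells Cdk6 is at 221 CPM in Listeria and 178 CPM in naive cells with at least 3 UMIs, against 130 and 120 CPM with none.

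B-lineage-like cells had a different D cyclin balance at the ends of the same axis. With at least 3 such UMIs, 362 Listeria cells held Ccnd3 at 497 CPM and Ccnd2 at 59.2 CPM, and 1249 naive cells held them at 391 and 59.1 CPM. With fewer than 3, 26 Listeria cells held Ccnd3 at 140 CPM and Ccnd2 at 147 CPM, and 108 naive cells held them at 122.9 and 134 CPM. The log2 difference of Ccnd3 between these cells was 1.83 (1.20 to 2.54) in Listeria and 1.67 (1.32 to 2.04) in naive cells, and that of Ccnd2 was -1.31 (-1.96 to -0.59) and -1.18 (-1.53 to -0.81). No Ccne1 UMI was found in the cells with fewer than 3, against 72.6 CPM in Listeria and 60.3 CPM in naive cells with at least 3. The cells with fewer than 3 were pooled because those with none numbered 8 in the Listeria and 18 in the naive library, and they were shallow, with median UMIs of 4010 and 4445.5 for cells with none.

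The 2 libraries were then compared. A gene that reached 10 CPM in Listeria or naive cells was called higher or lower where its log2 ratio was at least 0.32 from 0. Over all kept cells Ccnd2 stood at 175 CPM in Listeria and 127 CPM in naive cells, Cdk6 at 361 and 285 CPM, Ccnd3 at 150 and 187 CPM, Cdk4 at 128 and 143 CPM, Cdk2 at 35.9 and 39.0 CPM, Ccnd1 at 37.0 and 34.9 CPM, Ccne1 at 10.9 and 18.9 CPM and Ccne2 at 8.28 and 11.96 CPM. Of the 8 genes 2 were called higher, Ccnd2 (log2 ratio 0.46, 0.41 to 0.51) and Cdk6 (0.34, 0.31 to 0.37), where 15.1% of 8183 genes were. Called lower were 2, Ccne1 (-0.79, -0.96 to -0.63) and Ccne2 (-0.53, -0.73 to -0.33), where 8.62% of genes were. The Cdk6 call ended under 4 of 8 settings, among them both other scalings, with a ratio of 0.29. Ccnd3, at -0.31 (-0.36 to -0.26), was not called but passed the limit as lower under 4 of 8 settings, both scalings included. The make-up of the libraries differed as well. B-lineage-like cells were 8.02% of Listeria and 21.3% of naive cells. That gate held 65.9% of all Ccne1 UMIs in Listeria and 81.5% in naive cells, 33.0% and 54.2% of Ccnd3, and 7.05% and 22.7% of Cdk6. Fewer cells of a type and less RNA per cell cannot be told apart in values over all cells. The part of make-up in these ratios was not tested.

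Within HSC-like cells, Ccnd2 was higher at 264 CPM in Listeria than at 191 CPM in naive cells (0.47, 0.36 to 0.57), and Cdk6 at 180 against 133 CPM (0.44, 0.31 to 0.57). These were 2 of the 6 members that reached 10 CPM, as the E cyclins did not, where 22.5% of 8140 genes were called higher and 6.31% lower, and no member was lower. Both calls held under all 11 alternative settings, with ratios between 0.36 and 0.68 for Ccnd2 and between 0.33 and 0.57 for Cdk6. The median log2 ratio of all genes was 0.11 in this gate, 0.10 in multipotent progenitor-like and 0.12 in early lymphoid-like cells, so that ratios relative to it are smaller. Ccnd3 was at 114 and 113 CPM (0.01, -0.14 to 0.16), Cdk4 at 90.9 and 83.2 CPM (0.13, -0.04 to 0.30), Cdk2 at 26.5 and 24.5 CPM (0.11, -0.20 to 0.43) and Ccnd1 at 58.2 and 52.2 CPM (0.16, -0.06 to 0.37). Markers of other cell types also differed within this gate. T and NK cell markers, with 5 of 13 at 0 in each library, summed to 148 CPM in Listeria and 69.0 CPM in naive HSC-like cells. B-lineage markers summed to 24.6 and 52.2 CPM, early lymphoid markers to 159 and 213 CPM, myeloid progenitor markers to 308 and 412 CPM and neutrophil markers to 68.7 and 109 CPM. Their part in these ratios was not tested.

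The stem cell differences were looked at again in cells matched for S, G2 and M phase UMIs. Ccnd2 was higher in Listeria HSC-like cells with none (256 CPM, against 192 CPM in naive, 0.42, 0.19 to 0.64), with 1 or 2 (276 against 187 CPM, 0.56) and with at least 3 (250 against 202 CPM, 0.31). Cdk6 was at 130 CPM in Listeria and 120 CPM in naive cells with none, a ratio of 0.11 whose interval of -0.19 to 0.42 held 0. With 1 or 2 it was at 180 CPM in Listeria and 121 CPM in naive cells (0.57, 0.40 to 0.75), and with at least 3 at 221 and 178 CPM (0.31, 0.08 to 0.54). In cells with at least 3, Cdk4 was at 126 CPM in Listeria and 84.8 CPM in naive cells (0.57, 0.25 to 0.89) and Ccnd1 at 65.5 and 47.1 CPM (0.48, 0.04 to 0.93). In cells with none, Ccnd1 was at 50.7 CPM in Listeria and 65.5 CPM in naive cells (-0.37, -0.83 to 0.08).

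Multipotent progenitor-like cells gave the same 2 members of 6, Ccnd2 at 191 CPM in Listeria and 151 CPM in naive cells (0.34, 0.26 to 0.43) and Cdk6 at 478 and 375 CPM (0.35, 0.30 to 0.40), where 19.4% of 7983 genes were called higher and 7.03% lower. Both calls ended under TMM scaling, at 0.27 for Ccnd2 and 0.28 for Cdk6, and each under 4 of 11 settings. Ccnd1 went the other way, at 39.7 CPM in Listeria and 48.1 CPM in naive cells (-0.28, -0.45 to -0.11), which passed the fold limit under 5 of 11 settings only. Among progenitors with no S, G2 or M phase UMI, Cdk6 was higher at 456 CPM in Listeria than at 325 CPM in naive cells (0.49, 0.36 to 0.62), and Ccnd2 was at 166 and 158 CPM (0.08, -0.13 to 0.28). Ccnd2 was higher in Listeria progenitors with 1 or 2 such UMIs (192 CPM, against 149 CPM in naive, 0.37, 0.25 to 0.49) and with at least 3 (201 against 149 CPM, 0.44, 0.29 to 0.58). Cdk6 was also higher there, at 451 CPM in Listeria and 376 CPM in naive cells with 1 or 2 (0.27, 0.19 to 0.34) and at 522 and 405 CPM with at least 3 (0.37, 0.28 to 0.46). In the multipotent progenitor-like gate B-lineage markers summed to 20.01 CPM in Listeria and 56.8 CPM in naive cells and early lymphoid markers to 259 and 391 CPM, and their part in these ratios was not tested.

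In B-lineage-like cells Ccnd3 was at 484 CPM in Listeria and 380 CPM in naive cells (0.35, 0.27 to 0.42) and Ccne2 at 40.5 and 31.9 CPM (0.34, 0.07 to 0.61). These were 2 of 7 members, where 7.62% of 7494 genes were called higher and 6.47% lower, and no member was lower. Both sat at the fold limit, and their calls ended under TMM scaling at 0.32 for Ccnd3 and 0.31 for Ccne2. Ccne1 at 70.0 and 57.9 CPM (0.27, 0.07 to 0.47) and Cdk2 at 88.6 and 74.7 CPM (0.25, 0.07 to 0.42) lay below the limit with intervals above 0. Ccnd2, Cdk4 and Cdk6 had log2 ratios between -0.01 and 0.03. The summed S phase list was also higher there, at 5144 CPM in Listeria and 4399 CPM in naive cells, and its part in these ratios was not tested.

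**Figure D5:**
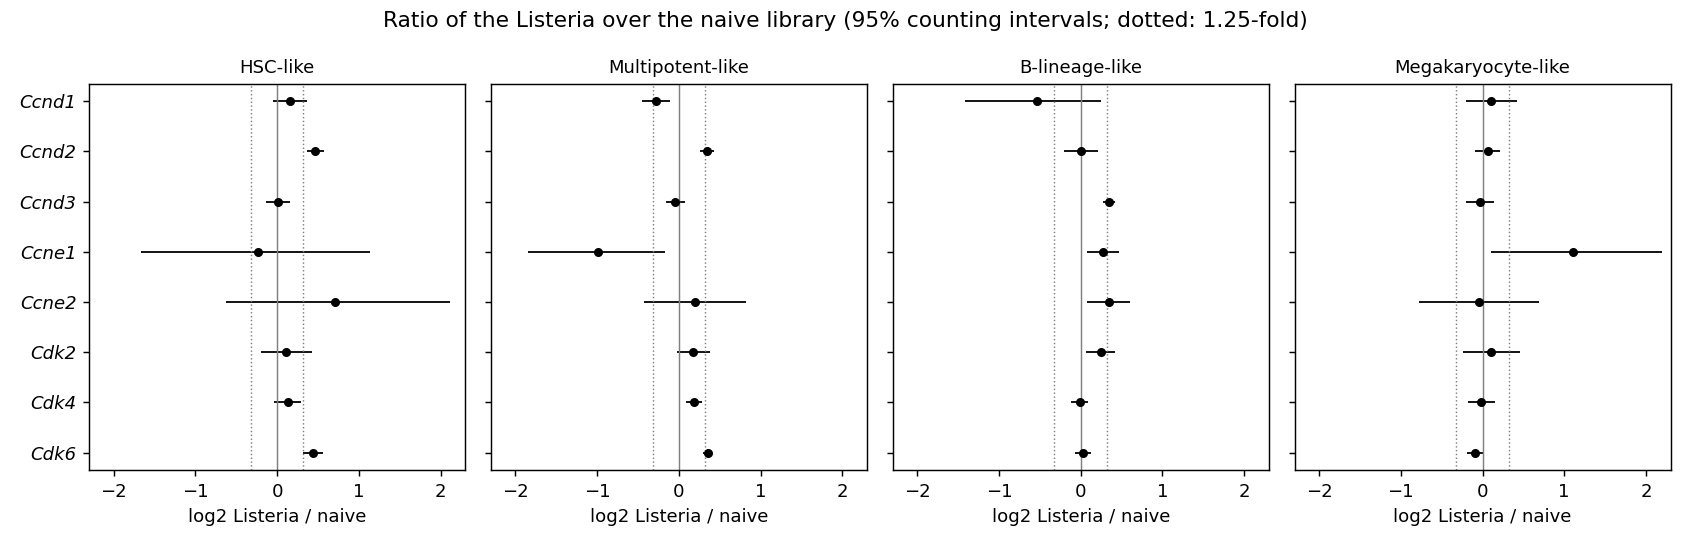
Log2 ratio of Listeria over naive level (x axis) for each gene in HSC-like, multipotent progenitor-like, B-lineage-like and megakaryocyte lineage-like cells, with 95% counting intervals. Ccnd2 and Cdk6 lie at 0.47 and 0.44 in HSC-like cells, and Ccne1 at 0.27 in B-lineage-like cells.

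Of the smaller gates, T and NK cell-like cells had Ccnd2 at 224 CPM in Listeria and 145 CPM in naive cells (0.63, 0.32 to 0.94), a call that held under all 10 settings. Cdk2 was also called there, at 24.1 and 13.8 CPM from 16 and 19 UMIs, but its interval of -0.26 to 1.84 held 0 and its ratio was -0.40 with 1 marker more per gate. These were 2 of 6 members, where 23.6% of 8194 genes were called higher and 22.2% lower. In early lymphoid-like cells 3 of 6 were called higher, where 33.1% of 8185 genes were and 17.3% were lower. They were Cdk6 at 523 and 380 CPM (0.46, 0.28 to 0.64), Ccnd3 at 154 and 119 CPM (0.38, 0.04 to 0.70) and Cdk2 at 32.5 and 22.97 CPM (0.50, -0.27 to 1.24). The first pair lost the call under TMM scaling, at 0.30 and 0.22, and Cdk2 turned to -0.32 after thinning.

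Megakaryocyte lineage-like cells had 0 of 6 members called, where 17.5% of 8170 genes were higher and 11.2% lower. Every member tested there had a ratio between -0.09 and 0.11 with an interval that held 0. In neutrophil-like cells 1 of 7 members was higher, Cdk2, and 4 were lower, Ccnd1, Ccnd2, Ccne1 and Cdk6, where 31.9% of 6710 genes were higher and 27.5% lower. Ccnd1 had 0 UMIs in Listeria and 10 in naive cells. The intervals of the other called members held 0, and their calls ended under at least 1 setting each.

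The partners of these genes were described from 5 lists. Among Cdk inhibitors, which hold the cyclin complexes in check, Cdkn1a (p21) was at 315 CPM in Listeria and 635 CPM in naive HSC-like cells (-1.01, -1.09 to -0.94) and at 192 and 396 CPM in multipotent progenitor-like cells (-1.05, -1.11 to -0.98). Cdkn2d (p19), which binds Cdk4 and Cdk6, was at 66.0 and 105 CPM in HSC-like cells (-0.67, -0.85 to -0.49). Cdkn1b (p27) ran the other way, at 77.0 CPM in Listeria and 60.4 CPM in naive HSC-like cells (0.35, 0.16 to 0.54), and Cdkn1c (p57), known for its part in HSC quiescence, was at 63.8 and 74.0 CPM (-0.21, -0.41 to -0.02). Of 4 measured inhibitors 1 was called higher and 2 lower in HSC-like cells, where 22.5% of all genes were higher and 6.31% lower. Their median there was -0.44 against 0.11 for all genes. In multipotent progenitor-like cells 0 were higher and 3 lower, where 19.4% of all genes were higher and 7.03% lower. The median there was -0.57 against 0.10. In B-lineage-like cells 1 of 4 was lower, Cdkn1a at 176 and 234 CPM (-0.41, -0.53 to -0.29), where 6.47% of all genes were lower.

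Cdkn1c, singled out after its values were seen, was higher in HSC-like than in multipotent progenitor-like and B-lineage-like cells. It stood at 63.8 CPM in Listeria and 74.0 CPM in naive HSC-like cells, against 14.9 and 21.2 CPM in multipotent progenitor-like and 9.43 and 9.11 CPM in B-lineage-like cells.

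Pocket proteins and E2F factors, the targets of the D cyclin kinases and the factors they release, had 4 of 10 measured genes higher and 0 lower in HSC-like cells, where 22.5% of all genes were higher and 6.31% lower, with a median of 0.16 against 0.11 for all genes. The extremes were E2f5 at 11.6 and 8.45 CPM (0.46, -0.05 to 0.98) and E2f4 at 30.6 and 22.95 CPM (0.42, 0.11 to 0.73), against Rbl2 (-0.11) and Rb1 (-0.08). In multipotent progenitor-like cells the list also had 4 of 10 higher and 0 lower, where 19.4% of all genes were higher and 7.03% lower, with a median of 0.28 against 0.10. It was led by E2f1 at 12.2 and 7.08 CPM (0.78) and Rbl1 (0.50). In B-lineage-like cells 3 of 12 were higher and 0 lower, where 7.62% of all genes were higher and 6.47% lower, with a median of 0.16 against 0.03. The list was led there by E2f3 at 119 and 88.9 CPM (0.42) and Rbl1 (0.39), with Rbl2 (-0.22) and Tfdp2 (-0.07) lowest.

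The list of other G1/S activators and of cyclin turnover had 3 of 11 genes higher and 0 lower in HSC-like cells, a share near the 22.5% of all genes, with a median of 0.28 against 0.11. Among them were Cdk7, a kinase that activates other Cdks, at 21.4 and 14.9 CPM (0.52, 0.14 to 0.90) and Ambra1, which guides D cyclin breakdown, at 15.5 and 11.97 CPM (0.37, -0.06 to 0.81). Multipotent progenitor-like cells had 4 of 11 higher and 0 lower, against 19.4% of all genes higher, with a median of 0.21 against 0.10, led by Cks1b at 45.7 and 31.0 CPM (0.56) and Mnat1 at 54.0 and 38.7 CPM (0.48). B-lineage-like cells, with a median of 0.01 against 0.03 for all genes, had 2 of 12 higher, where 7.62% of all genes were, Skp2 at 40.2 and 30.7 CPM (0.39) and Cdk7 at 17.6 and 13.4 CPM (0.39), and 1 lower, Myc at 26.1 and 36.4 CPM (-0.48, -0.80 to -0.18).

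S phase genes, many of them E2F targets, had 12 of 16 genes higher and 1 lower in HSC-like cells. Of all genes there, 22.5% were higher and 6.31% lower. The list had a median of 0.57 against 0.11 for all genes, and a summed level of 654 CPM in Listeria and 523 CPM in naive cells. Uhrf1 was among the highest, at 13.1 CPM in Listeria and 6.76 CPM in naive cells (0.95). Gins2, at 15.8 and 24.4 CPM (-0.63), and Pcna, at 74.5 and 88.1 CPM (-0.24), were lowest. Multipotent progenitor-like cells had 12 of 17 higher and 0 lower, where 19.4% of all genes were higher and 7.03% lower. Mcm6 was at 97.2 and 53.1 CPM (0.87). Against the same shares of all genes, 2 of 5 G2 and M phase genes were higher in HSC-like cells, with Top2a at 68.1 and 42.8 CPM (0.67). In multipotent progenitor-like cells 8 of 11 were, led by Tpx2 (0.67) and Cenpf (0.63). Over all kept cells the direction was opposite, with 0 of 20 S phase genes higher and 10 lower, and 18 of 20 G2 and M phase genes lower. Of all genes over these cells, 15.1% were higher and 8.62% lower. B-lineage-like cells, with a summed S phase level of 5144 CPM in Listeria and 4399 CPM in naive cells, were 8.02% of Listeria and 21.3% of naive cells.

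The genes most like each member were taken by Pearson's r of log2 levels over 24 profiles, 12 gates in 2 libraries. The profiles share libraries and some hold few cells, so r is a description. Ccne1 was nearest to Cdc6 (0.91), Hist1h2bm (0.88) and Rrm2 (0.88), genes of replication licensing, histones and nucleotide supply, and Ccne2 to Cenpk (0.94), Hist1h3d (0.91) and Melk (0.90). Cdk4 was nearest to Mrpl11 (0.98), Pa2g4 (0.97) and Gtf3a (0.96), and Cdk6 to Hp1bp3 (0.92), Csnk1a1 (0.90) and Pkn2 (0.90). Cdk2 was nearest to Bclaf3 (0.89), Frg1 (0.89) and Terf1 (0.88). Among the D cyclins, Ccnd1 was nearest to Nav1 (0.91), Rnf150 (0.91) and Srgap3 (0.91), Ccnd2 to Spint2 (0.93), Sec31a (0.91) and Ddrgk1 (0.90), and Ccnd3 to Ppp2r1a (0.87), Hnrnpdl (0.86) and Ppp1cb (0.86). Between members, which unlike the genes above were not picked for a high r, it was 0.78 for Ccne1 and Ccne2. For Ccnd2 it was 0.74 with Cdk4 and -0.36 with Ccnd3. In profiles of at least 50 cells these pairs had 0.91, 0.59 and -0.28. The nearest genes there were mostly others, with Gfra2, Ndufs5 and Chst3 for Ccne1.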

How the data were processed

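Transcripts were counted in 2 droplet libraries, 1 per group. The authors deposited UMI counts for every barcode, made with Cell Ranger 3.0.2 on mm10 per the submitters' processing notes, with 3′ end chemistry per the labels' protocols. The counts were used without normalization by the authors. Cells were kept as stated, summed per marker gate and scaled to CPM. Doublets were not called by a program: cells passing several lineage gates were left out. Levels have exact Poisson intervals, ratios exact binomial ones and shares Clopper-Pearson ones. PCR and capture errors are outside them. Thinning drew 2500 UMIs per cell at random. Free RNA was taken from barcodes with 1 to 50 UMIs. It was first scaled by haemoglobin genes in B-lineage-like cells, whose naive counts were carried by few cells. Neutrophil granule genes in HSC-like and B-lineage-like cells were then used in their place, a choice made after seeing the data. On simulated counts the intervals held the true ratio for 95.3% of unchanged genes over all kept cells, 95.7% in HSC-like and 95.6% in B-lineage-like cells. For 100 genes with a planted 2-fold change these shares were 95.0%, 96.0% and 91.0%. The simulated counts were Poisson draws with no spread between cells or mice, so they check the calculation only. Alternative scalings came from edgeR 4.0.16 and DESeq2 1.42.0 factors. Software was Python 3.11.15 with NumPy 2.4.6, SciPy 1.17.1 and pandas 2.3.3, and R 4.3.3.

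Named genes were the 8 members, the 2 highest and 2 lowest ratios of each list with at least 10 CPM, and the 3 genes most like each member among genes with at least 20 CPM in a profile, on log2(CPM + 5). A gene that this rule names in the S phase list is not reported here. The grading by HSC marker number, the pooling of cells with fewer than 3 S, G2 and M phase UMIs and a check of likeness in profiles of at least 50 cells, which named mostly other genes, were added after seeing the data. The members and lists were chosen with earlier results of these data known.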

Additional observations from a re-analysis of the deposited data

Results flagged for a closer look

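Ccne1, an E cyclin, differed between the libraries in opposite directions in 2 gates. In megakaryocyte lineage-like cells it was at 7.18 CPM in Listeria (31 UMIs) and 3.34 CPM in naive cells (12 UMIs), a log2 ratio of 1.10 (0.10 to 2.20). In multipotent progenitor-like cells it was at 1.48 CPM in Listeria (20 UMIs) and 2.94 CPM in naive cells (39 UMIs), a ratio of -0.99 (-1.84 to -0.17). In both gates Ccne1 was under the 10 CPM that a call needs, so neither ratio was a call. The difference between the gates was not tested, and both ratios rest on few UMIs of 1 library per group.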

How the results depend on the processing

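No paired analysis was possible because each group had 1 library. Settings tried were another UMI minimum, mitochondrial limit, weighting, thinning, gates, free RNA subtraction and scaling. The Ccnd2 log2 ratio of Listeria over naive was 0.41 over all kept cells under TMM, and in HSC-like cells 0.61 thinned, 0.68 with gates on thinned cells and 0.36 under DESeq2 factors. In multipotent progenitor-like cells it was 0.45 with gates on thinned cells. The Cdk6 ratio over all kept cells was 0.38 with at most 5% mitochondrial UMIs and 0.29 thinned, under TMM and under DESeq2 factors. With 1 marker fewer it was 0.57 in HSC-like cells, and under TMM 0.28 in multipotent progenitor-like cells. The Ccnd3 ratio over all kept cells was -0.39 with at most 5% mitochondrial UMIs, -0.26 with cells weighing the same and -0.36 under both scalings, and 0.43 in B-lineage-like cells gated after thinning. The Ccne1 ratio over all kept cells was -1.01 thinned. With gates on thinned cells Ccnd2 made up 64.3% of D cyclins in Listeria HSC-like cells, Ccnd3 89.7% in Listeria and 86.1% in naive B-lineage-like cells and Cdk6 78.7% of both kinases in naive multipotent progenitor-like cells, and 79.2% in Listeria ones when thinned. Without thinning before the S, G2 and M phase split, 2 differences turned: Ccnd1 in naive HSC-like cells to 0.41, against -0.48, and Cdk6 in Listeria B-lineage-like cells to 0.76, against -1.36. Of the 65 differences that this split gave, a further 18 left their interval and 45 stayed within it. With a limit of 1.5-fold, S phase genes called higher numbered 7 in place of 12 in HSC-like and in multipotent progenitor-like cells, pocket proteins and E2F factors 0 and 1 in place of 4 each, and G2 and M phase genes 2 in place of 8 in multipotent progenitor-like cells. Counts of listed or tested genes moved over 1.5 times in 59 of 176 cases. Of 634 ratios under other settings 583 moved by less than their interval. Depth limits the E cyclins outside B-lineage-like cells and all genes in gates of few cells.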
